A study of Mus musculus with 2 samples.

Results

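The acute phase proteins are plasma proteins whose output by the liver shifts during inflammation, and 10 of their genes were followed here in nuclei from mouse livers with diet-induced MASH: the serum amyloid A genes *Saa1*, *Saa2*, *Saa3* and *Saa4*, *Hp*, *Hpx*, *Orm1*, *Orm2*, *Lcn2* and *Itih3*. They were picked by gene symbol, and all 10 were present among the 32285 genes of the deposited matrices. Liver nuclei were sorted and sequenced as 3′ snRNA-seq in 2 libraries, 1 per genotype. All mice were male C57BL6/J animals that carried floxed *Themis* alleles and had received a MASH diet for 5 months from an age of 10 to 12 weeks, with 40% of energy from fat, 20% from fructose and 2% cholesterol. The library labelled Flox came from *Themis* flox/flox mice (its title calls it WT), and that labelled HKO from mice in which an albumin promoter drives Cre in hepatocytes (Alb-Cre). Livers of several mice were pooled within each genotype, so that each group was a single library with no replicate, animals could not be separated, and genotype and library cannot be told apart. No test between the groups was therefore possible. Ratios between libraries carry 95% intervals that cover counting error only, and "lower" or "higher" below describes these libraries, not the genotypes.

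In an inflamed body, interleukin-6 acting through STAT3, together with interleukin-1 and TNF acting through NF-kB and C/EBP factors, drives hepatocytes to transcribe the positive acute phase genes, while albumin and other negative acute phase proteins decline. SAA proteins are small apolipoproteins of HDL: *Saa1* and *Saa2* encode the acute forms, *Saa4* a form made constitutively, and *Saa3* a form also made outside the liver, for instance by macrophages and adipocytes. Haptoglobin (*Hp*) captures free haemoglobin and hemopexin (*Hpx*) captures haem. Orosomucoids (*Orm1* and *Orm2*) are abundant plasma glycoproteins that bind small lipophilic molecules, lipocalin 2 (*Lcn2*) withholds iron from bacteria by binding siderophores, and *Itih3* encodes a heavy chain of the inter-alpha-trypsin inhibitor family, which is coupled to hyaluronan.

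Filtering left 8659 nuclei in the library labelled Flox against 9801 in that labelled HKO. Nuclei were assigned to cell types by the UMIs (unique molecular identifiers, 1 per captured transcript) of marker genes, which gave 5834 and 4453 hepatocytes. All 18 hepatocyte markers had at least 10 UMIs and were at least 1.5-fold above the other nuclei in these hepatocytes, which held 46123763 and 27471466 UMIs with a median of 7446 and 5832 per nucleus. Hepatocytes made up 67.4% and 45.4% of the nuclei. Expression is given as CPM, the UMIs of a gene per 1000000 UMIs of the summed nuclei. These 3′ tags are counted once per transcript, so CPM needs no correction for gene length. The targeted gene went against its label: *Themis* stood at 163 CPM in hepatocytes of the library labelled Flox and at 245 CPM in those labelled HKO, a ratio of 1.502 (1.45–1.55). The 3′ counts do not show whether the floxed exon was present, so no difference below can be assigned to loss of *Themis*.

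Of the 10 genes, 7 were lower by 1.5-fold or more in hepatocytes of the library labelled HKO, none was higher by that margin, and 9 had a ratio below 1. Among all 11214 genes with at least 200 UMIs in hepatocytes, 9.73% were lower and 7.32% were higher by this margin. The median log2 ratio of HKO-labelled over Flox-labelled CPM was −0.86 for the 10 genes and −0.02 for all genes tested. Together, the 10 genes took 0.304% of hepatocyte UMIs in the library labelled Flox against 0.146% in that labelled HKO. When all nuclei were clustered, the hepatocytes of the libraries fell in part into different clusters: 1 cluster held 1317 nuclei labelled Flox against 168 labelled HKO, another 907 against 345 and another 900 against 1311. Whether these ratios hold within such clusters was not tested.

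The acute forms of SAA lie on chromosome 7 (mm10) and showed the widest gap between the libraries. *Saa1* (ENSMUSG00000074115, chr7:46740497-46742980, minus strand) stood at 479 CPM in the library labelled Flox against 76.6 CPM in that labelled HKO, and was thus 6.26-fold lower (5.99–6.55). *Saa2* (chr7:46751790-46754313, plus strand) stood at 121 and 28.2 CPM, 4.29-fold lower (3.97–4.63). *Saa1* gave 79.9% of the UMIs of this pair in the library labelled Flox against 73.1% in that labelled HKO. The 3′ ends of these paralogs could be told apart: of the windows of 90 bases in the last 500 bases of their transcripts, none was shared with another gene.

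*Saa1* and *Saa2* are transcribed away from each other, and their promoters are shown because this pair had the widest gap and varied most closely from nucleus to nucleus (see the correlations given further on). The 250 bases before each start (RefSeq, GRCm38.p6) were identical at 238 of 251 aligned columns (94.8%). *Saa3* and *Lcn2* are shown beside them because their levels in hepatocytes differed least between the libraries. Capitals mark matches to a C/EBP motif, TTNNGNAA on either strand (read as TTNCNNAA on the other), and each sequence runs 5′ to 3′ toward the start, from chr7:46742981-46743230 (minus strand), chr7:46751583-46751832 (plus strand), chr7:46715677-46715926 (minus strand) and chr2:32387740-32387989 (minus strand) in this order.
Saa1: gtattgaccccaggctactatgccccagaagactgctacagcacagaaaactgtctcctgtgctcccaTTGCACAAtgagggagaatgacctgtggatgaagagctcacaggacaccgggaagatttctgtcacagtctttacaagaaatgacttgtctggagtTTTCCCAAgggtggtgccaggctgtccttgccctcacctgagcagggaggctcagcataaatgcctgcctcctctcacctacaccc
Saa2: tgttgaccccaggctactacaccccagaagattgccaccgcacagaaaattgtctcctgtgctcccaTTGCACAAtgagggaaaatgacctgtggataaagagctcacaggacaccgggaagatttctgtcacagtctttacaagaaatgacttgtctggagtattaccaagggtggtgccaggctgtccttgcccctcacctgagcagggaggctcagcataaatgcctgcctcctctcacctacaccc
Saa3: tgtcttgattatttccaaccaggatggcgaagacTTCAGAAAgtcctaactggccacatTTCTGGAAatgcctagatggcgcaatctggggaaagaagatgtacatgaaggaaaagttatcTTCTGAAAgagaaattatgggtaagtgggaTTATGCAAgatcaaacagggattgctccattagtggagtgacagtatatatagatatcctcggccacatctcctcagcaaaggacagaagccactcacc
Lcn2: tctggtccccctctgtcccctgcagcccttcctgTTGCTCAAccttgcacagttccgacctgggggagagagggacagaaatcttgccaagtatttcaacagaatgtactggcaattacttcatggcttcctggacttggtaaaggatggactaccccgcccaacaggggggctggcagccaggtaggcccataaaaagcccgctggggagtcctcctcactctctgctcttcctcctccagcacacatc
The C/EBP letters occurred in all 4 sequences, with 2 matches in *Saa1*, 1 in *Saa2*, 4 in *Saa3* and 1 in *Lcn2*. They also occurred in 36.8% of the 32851 promoters of the same length in the table, so that a match by itself is common. *Saa4*, *Hpx* and *Orm2* each held 2 matches and *Itih3* none. No match to a STAT motif (TTCNNNGAA, in 7.02% of promoters) or an NF-kB motif (GGG, any 2 bases, then TTTCC, on either strand, in 1.41%) was found in the 8 promoters that the table holds, which says only that these letters are not in these windows.

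The remaining SAA genes behaved less alike. *Saa4* (chr7:46727998-46732603) stood at 347 and 183 CPM, 1.90-fold lower in the library labelled HKO (1.84–1.96). *Saa3* (chr7:46711998-46715700) was rare in hepatocytes, at 6.01 CPM from 277 UMIs and 4.95 CPM from 136 UMIs. Its ratio of 0.824 had an interval of 0.666 to 1.02, so that no difference was detectable at this depth. Of the 90-base windows near the 3′ ends of *Saa3* transcripts, 1.09% were shared with *Malat1*, so that reads from those windows may not be assignable.

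Among the scavengers, *Hp* (chr8:109575128-109579172) stood at 753 and 488 CPM, 1.54-fold lower in the library labelled HKO (1.51–1.57), which is close to the margin used. With each nucleus weighted equally its ratio was 0.678, short of that margin. *Hpx* (chr7:105591613-105600137) stood at 362 and 265 CPM, 1.36-fold lower (1.327–1.402). Both differences lay outside counting error but were small beside that of *Saa1*, and that of *Hpx* was near the 1.28-fold of *Alb* (albumin, 2098 and 1644 CPM), which is a negative acute phase gene.

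*Orm1* (chr4:63344560-63348163) stood at 153 and 70.0 CPM, 2.19-fold lower (2.079–2.302), and *Orm2* (chr4:63362449-63365878) at 11.5 and 6.19 CPM, 1.85-fold lower (1.56–2.22). Of the 90-base windows near their 3′ ends, 16.3% were shared between these 2 paralogs, so that reads from those windows may not be assignable and the values of *Orm2*, the rarer of the pair, are uncertain. *Itih3* (chr14:30908572-30923760), the most abundant of the 10 in the library labelled Flox, stood at 787 and 320 CPM, 2.46-fold lower (2.40–2.51). *Lcn2* (chr2:32384633-32388252) stood at 20.4 and 22.2 CPM. It was the only one of the 10 with a ratio above 1, at 1.09, and its interval of 0.984 to 1.21 included equality. Among hepatocytes without any UMI of another cell type's marker, the ratio of *Lcn2* was 0.773 and that of *Saa3* 0.321. A hepatocyte held a median of 2 and 1 UMI of endothelial markers alone, so many hepatocytes were left out of this set. Ratios of such rare genes in this set thus rest on fewer UMIs than those over all hepatocytes. There too 7 genes were lower by 1.5-fold, counted among genes with at least 200 UMIs in that set. These need not be the same 7 genes.

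**Figure D1:**
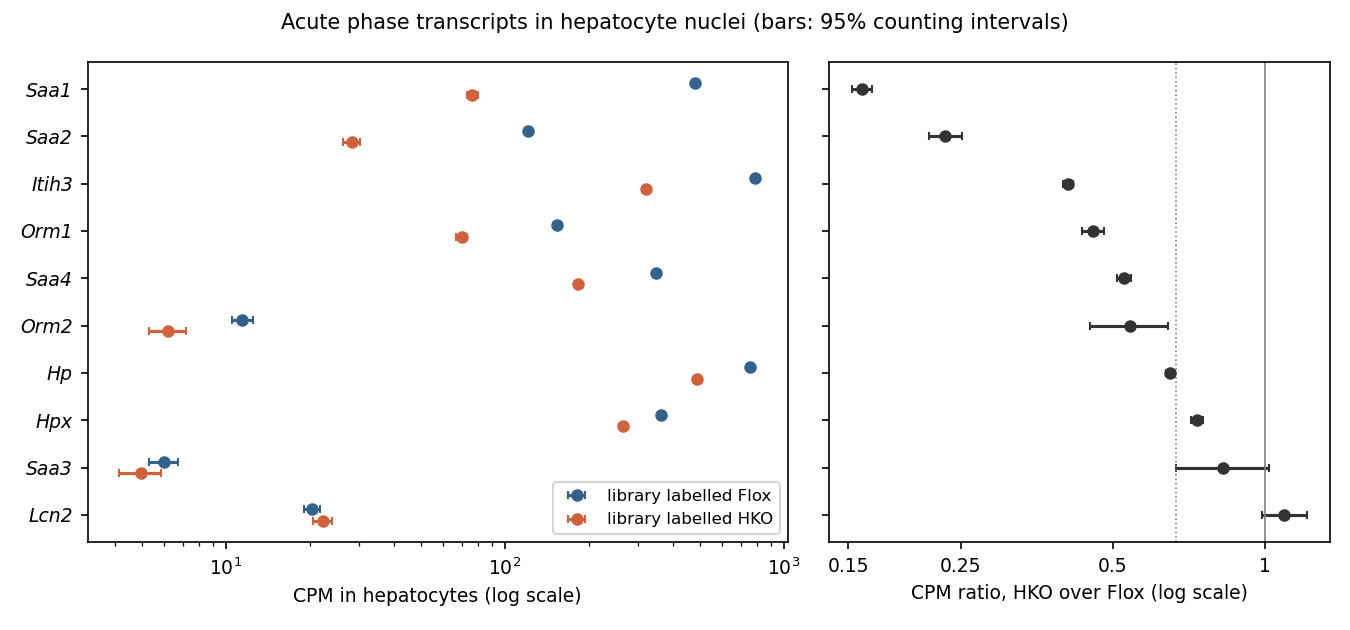
CPM of each of the 10 genes in hepatocytes of the 2 libraries (left, log axis) and the ratio of HKO-labelled over Flox-labelled CPM (right, log axis), with bars for 95% counting intervals, a solid line at equality and a dotted line at 1.5-fold lower. *Saa1* has the lowest ratio, and *Lcn2* alone lies above 1.

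To compare the share of hepatocytes with a UMI between nuclei of unequal depth, each nucleus was thinned to 1000 UMIs, which left 5814 and 4415 hepatocytes. *Saa1* was then found in 20.5% of hepatocytes of the library labelled Flox (exact binomial interval 19.4–21.5) and in 5.32% of those labelled HKO (4.68–6.03), against 43.2% and 16.2% before thinning. Endothelial nuclei, which should lack these transcripts, had median depths of 1330 and 962 UMIs before thinning. Most of those labelled HKO thus fell below 1000 UMIs and were left out. Of the endothelial nuclei that remained, 2.79% and 2.50% held *Saa1*. The share of *Saa1* was thus above this level in hepatocytes of both libraries.

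*Hp* was found in 48.5% and 35.0% of thinned hepatocytes, and in 18.3% and 15.7% of thinned endothelial nuclei. *Itih3* was found in 45.2% and 26.7% of hepatocytes but in 3.67% and 1.79% of thinned endothelial nuclei. *Saa2* was found in 7.02% (6.37–7.70) and 1.90% (1.52–2.35) of thinned hepatocytes, and *Saa4* in 25.3% (24.2–26.4) and 14.0% (13.0–15.1). The shares of *Hpx*, 26.8% (25.7–28.0) and 21.2% (20.0–22.5), lay closer to each other. *Orm1* was found in 13.6% (12.8–14.5) and 7.07% (6.33–7.86). *Lcn2* was found in 1.89% and 2.02% of hepatocytes and *Saa3* in 0.499% and 0.498%, with intervals that overlapped. *Orm2*, at 0.894% and 0.702%, had overlapping intervals too, although its CPM differed.

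Hepatocytes differ along the lobule from the portal vein (zone 1) to the central vein (zone 3). A zone index was computed for each hepatocyte from 9 zone 1 and 12 zone 3 markers, none of which is among the 10 genes, and the hepatocytes of a library were divided into 3 groups of equal size, called zone 1, middle and zone 3. Of the 9 genes with enough UMIs in the library labelled Flox, 7 were higher in zone 1 than in zone 3 by 1.5-fold or more and none was lower by that margin, beside 7.83% and 7.14% of all genes tested. In the library labelled HKO the counts were 7 and none of 8 genes, beside 5.06% and 6.64%.

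In the library labelled Flox, *Saa1* went from 832 CPM in zone 1 to 348 CPM in the middle group and 173 CPM in zone 3, a 4.802-fold gradient (4.59–5.03). *Itih3* had a similar gradient of 4.52-fold, from 1399 to 310 CPM, and *Saa2* one of 4.68-fold. The scavengers differed from each other, since *Hpx* was 3.81-fold higher in zone 1 (3.634–4.001) and *Hp* 1.91-fold (1.85–1.97). *Orm1* was 2.52-fold and *Lcn2* 2.57-fold higher in zone 1, *Saa4* only 1.403-fold. *Saa3* was no higher in zone 1 than in zone 3 (ratio 0.791, 0.554–1.12). *Orm2* stood at 13.0 and 8.94 CPM, a ratio of 1.46 that became 0.919 (0.676–1.25) once *Sds* and *Cyp2e1*, the most abundant marker of each zone, were left out of the index, so that its direction is unsettled.

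The gradients were shallower for most of these genes in the library labelled HKO. *Saa1* stood at 89.1 CPM in zone 1 and 41.0 CPM in zone 3, a 2.17-fold gradient (1.88–2.53). *Itih3* was 2.58-fold and *Hpx* 2.17-fold higher in zone 1, while *Saa4*, at 1.59-fold, was the only abundant member with a ratio above that of the library labelled Flox. *Lcn2* had nearly the same ratio as in the other library, 2.39 (1.83–3.14). *Alb* showed the same flattening, from 2.56-fold to 1.36-fold.

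The gap between the libraries was also read within each zone group. The groups were set within each library, and with limits set on both libraries together 7 genes were again higher in zone 1 in each. *Saa1* was 9.34-fold lower in the zone 1 group labelled HKO than in that labelled Flox (8.65–10.1), 5.002-fold lower in the middle group (4.58–5.47) and 4.23-fold lower in zone 3 (3.70–4.85). *Itih3* was 2.93-fold lower in zone 1 and 1.67-fold lower in zone 3, and *Orm1* 2.72-fold (2.49–2.98) and 1.71-fold (1.499–1.95). *Hpx* was 1.78-fold lower in zone 1, while in zone 3 it stood at 160 and 158 CPM, a fold of 1.02 with an interval of 0.940 to 1.10. The negative acute phase gene *Alb* had much the same pattern, 1.78-fold lower in zone 1 (1.75–1.82) and a fold of 0.943 in zone 3 (0.919–0.968). The change of *Hpx* by zone is thus not particular to positive acute phase genes. *Saa4* was lower by about the same fold throughout, 1.60 in zone 1 and 1.81 in zone 3. *Lcn2* did not differ beyond counting error in any of the 3 groups.

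**Figure D2:**
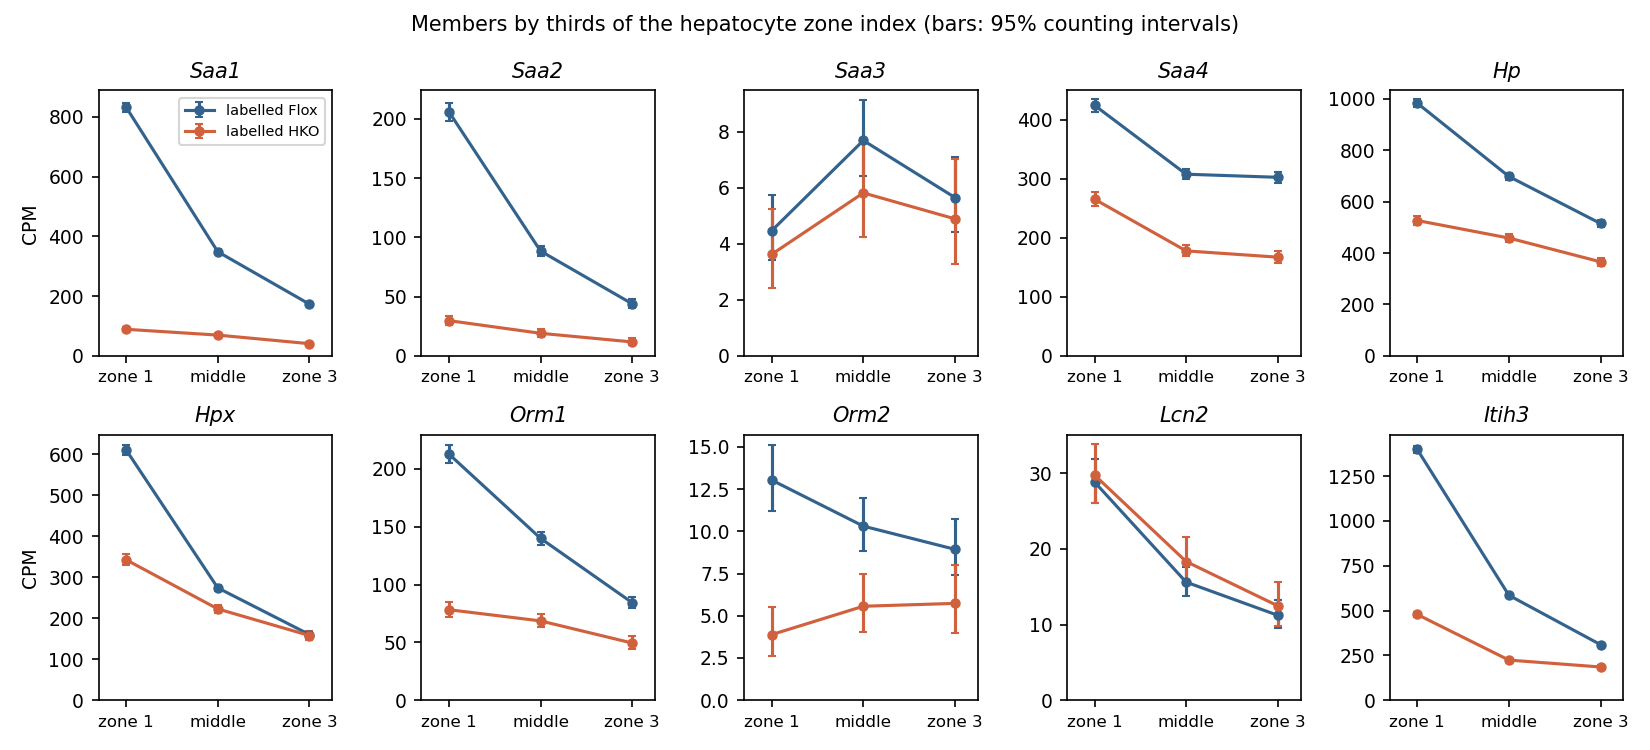
CPM of each of the 10 genes (linear axes that start at 0) in the zone 1, middle and zone 3 groups of hepatocytes of each library, with 95% counting intervals. The slope of *Saa1*, from 832 to 173 CPM in the library labelled Flox, is flatter in that labelled HKO, and *Hpx* meets at nearly equal levels in zone 3.

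Hepatocytes with fewer than 10 zone-marker UMIs could not be placed, and there were 529 of them in the library labelled Flox against 1336 in that labelled HKO, with median depths of 4718 and 4254 UMIs. In the library labelled Flox these nuclei held more of most of the 10 genes than any placed group. *Saa1* stood at 1014 CPM there and at 105 CPM in the same nuclei labelled HKO, 9.65-fold lower (8.84–10.5). *Lcn2*, which differed little elsewhere, stood at 52.8 and 27.4 CPM in them, 1.93-fold lower (1.52–2.43). *Saa4* was 4.30-fold lower in this set, at 413 and 96.1 CPM. Without these nuclei the ratio of *Saa1* over all hepatocytes was 0.154 in place of 0.160, and the number of genes lower by 1.5-fold was again 7. Depth differed between the libraries throughout. Within hepatocytes of 4000 to 10000 UMIs, 7 genes were lower by 1.5-fold and the ratio of *Saa1* was 0.148.

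Spread from nucleus to nucleus was read as the Fano factor (variance over mean of the UMIs per nucleus, near 1 for pure counting). *Saa1* and *Saa2* had the highest of the 10. In hepatocytes thinned to 3000 UMIs (5651 and 3927 nuclei), that of *Saa1* was 7.75 in the library labelled Flox against 5.79 in that labelled HKO. Its mean was 1.45 and 0.233 UMIs, and a Fano factor can rise with the mean. The lower value therefore does not show a more even spread in the library labelled HKO. The median Fano factor over 4481 genes was 1.06 and 1.07, while *Alb*, which is far more abundant, stood at 8.19 and 5.70. No *Saa1* UMI was found in 67.4% and 89.2% of these nuclei, while single nuclei reached 44 and 23. The 10% of nuclei with the most *Saa1* held 68.4% of its UMIs in the library labelled Flox against 96.7% in that labelled HKO. With 89.2% of nuclei at 0, the second share had to be near 100%, so it does not measure a more uneven spread. It was 100% in both libraries for the rare *Saa3*, *Orm2* and *Lcn2*.

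Most hepatocytes thus carried little *Saa1* in either library, and those with 5 or more UMIs went from 10.9% of nuclei to 0.993%. *Hp* was spread far more evenly, with Fano factors of 2.21 and 2.27 and no UMI in 19.1% and 34.4% of nuclei. *Orm1* had the lowest Fano factors among the abundant members (1.44 and 1.38), but also low means of 0.474 and 0.216 UMIs. Because a Fano factor can rise with the mean, it does not rank genes of unlike level by evenness. All 10 genes had Fano factors above 1 in both libraries, among them *Itih3* (3.10 and 1.80) and *Saa3* (2.85 and 3.64). Intervals from counting error are thus too narrow for all of them, and most so for *Saa1* and *Saa2*, whose UMIs sit in few nuclei.

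**Figure D3:**
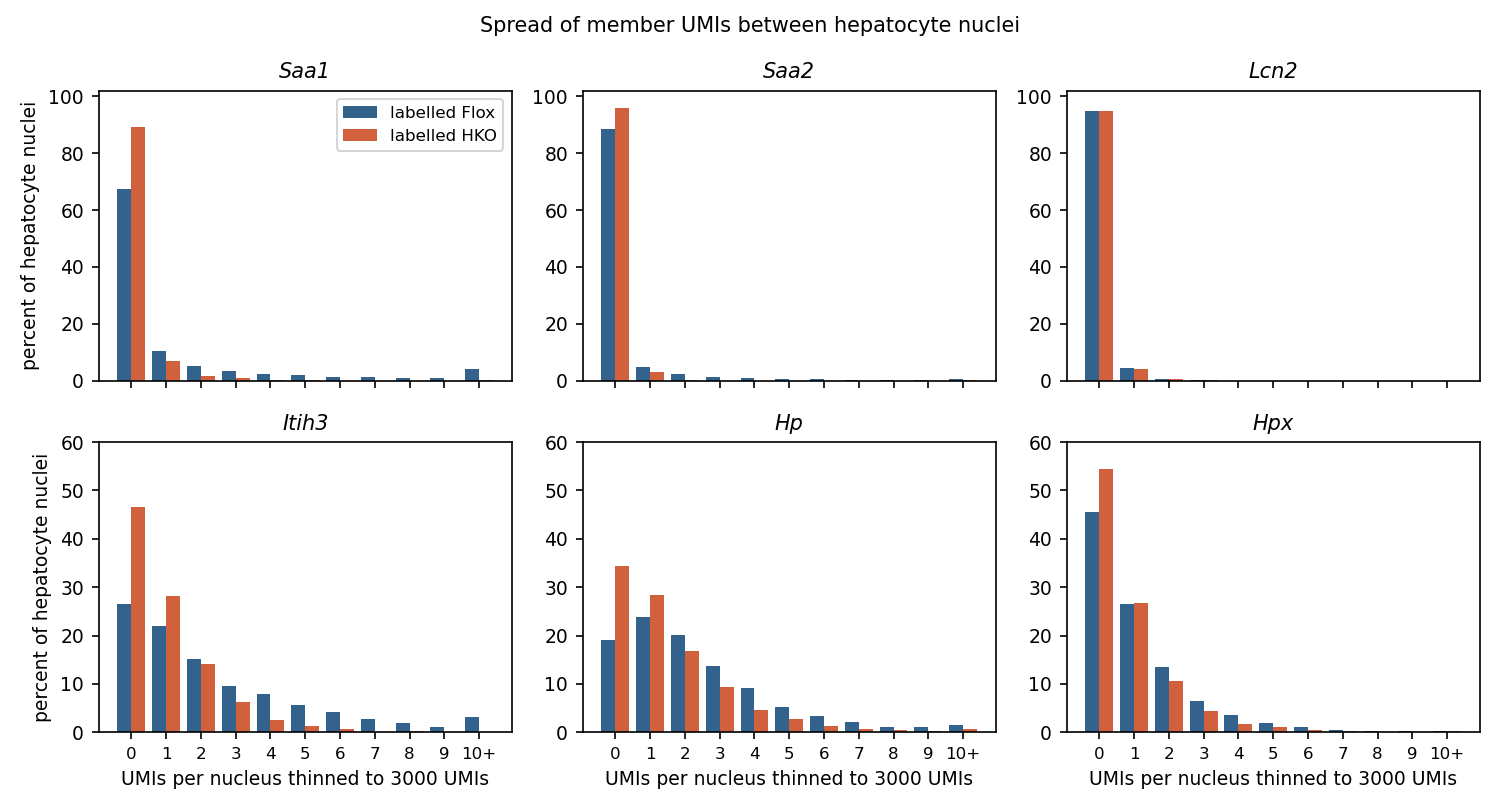
Bars give the percentage of hepatocytes, thinned to 3000 UMIs, with each number of UMIs per nucleus for 6 of the genes, by library. *Saa1* has a long tail with 10.9% of nuclei at 5 or more UMIs in the library labelled Flox against 0.993% in that labelled HKO, while *Hp* is found in most nuclei of both.

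The members varied together between nuclei to different degrees. Correlations were computed over the hepatocytes of each library on Pearson residuals, which take out depth. They are descriptions, since the nuclei share a library and pooled animals, and they carry no p. *Saa1* and *Saa2* had the highest correlation, r = 0.67 over 5834 nuclei labelled Flox and 0.73 over 4453 nuclei labelled HKO. *Hp* and *Hpx*, the haemoglobin and haem scavengers, followed with 0.58 and 0.54. *Saa1* with *Lcn2* gave 0.33 and 0.41.

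Other pairs were correlated in one library more than in the other. *Saa1* with *Itih3* gave r = 0.46 in the library labelled Flox against 0.10 in that labelled HKO, and within the zones 0.26 to 0.43 and 0.07 to 0.14. *Saa1* with *Saa4* went from 0.41 to 0.16, and *Saa1* with *Orm1* from 0.48 to 0.32. These genes also had fewer UMIs per thinned nucleus in the library labelled HKO. Their means in the libraries labelled Flox and HKO were 1.45 and 0.233 for *Saa1* and 2.48 and 0.999 for *Itih3*. For *Saa4* they were 0.995 and 0.536, and for *Orm1* 0.474 and 0.216. The residuals take out depth but not this difference in level, and its part in the lower r was not tested. *Saa1* with *Alb* was near 0 in both (0.05 and 0.06), whereas *Hpx* with *Alb* gave 0.53 and 0.43. Within the zone groups of the library labelled Flox, *Saa1* with *Alb* gave −0.13 to 0.03. There *Hpx* with *Alb* ran from 0.17 in zone 3 to 0.49 in the middle group. Detection overlapped in the strongest pair too, since *Saa2* was found in 29.2% of thinned nuclei with *Saa1* and in 3.18% of those without it in the library labelled Flox, and in 16.3% and 2.51% in that labelled HKO. *Lcn2* was found in 10.4% of nuclei with *Saa1* against 2.60% without it, and in 14.4% against 3.995% in the library labelled HKO.

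**Figure D4:**
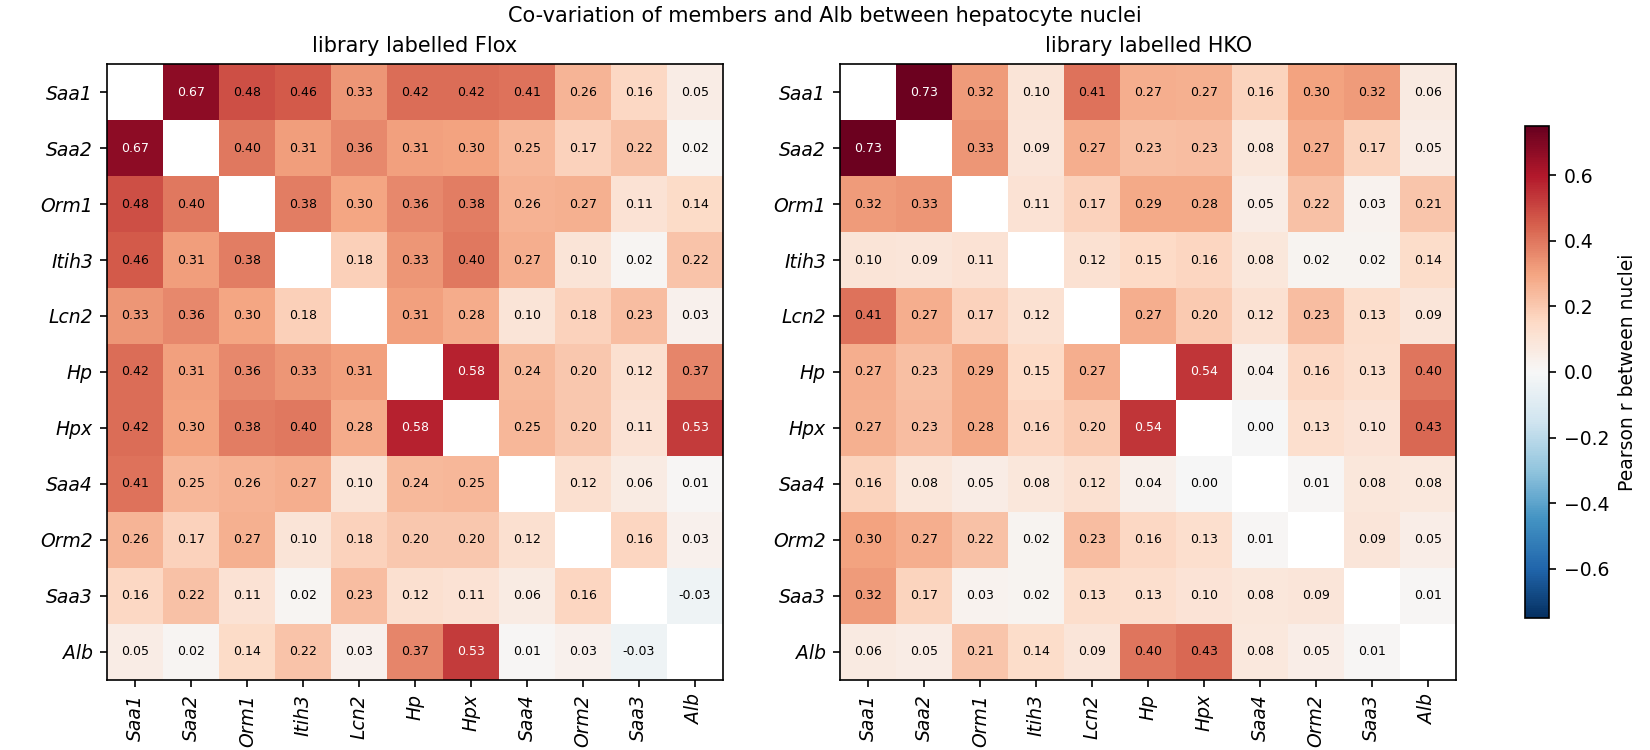
Pearson r between pairs of the 10 genes and *Alb* over hepatocyte nuclei of each library, on residuals with depth taken out, as a colour from low to high with its value printed. The cells of *Saa1* with *Saa2* (0.67 and 0.73) and of *Hp* with *Hpx* (0.58 and 0.54) are the highest among the 10 genes.

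For the 6 genes with at least 1000 UMIs in each library (*Saa1*, *Saa4*, *Hp*, *Hpx*, *Orm1* and *Itih3*), the genes most like each were sought among 4481 genes past that same minimum by the mean r of the libraries. *Saa2* was below it, with 775 UMIs in the library labelled HKO, and so was not among the genes searched. Among those searched, *Cxcl1*, a neutrophil-attracting chemokine, was most like *Saa1* (r = 0.60 and 0.44), followed by *Itih4*, the metalloreductase gene *Steap4*, the fibrinogen gene *Fgg* and *Orm1*. The gene most like *Orm1* was in turn *Saa1*, followed by *Fgg*, *Hpx*, *Fgb* and *Cxcl1*. The genes most like *Hp* were *Hpx*, *C3* (complement), *Trf* (transferrin), *Fgb* and *Gc* (vitamin D-binding protein), and *Hpx* had *Hp*, *Alb*, *C3*, *Gc* and *Fgb*, all of them genes of secreted plasma proteins. The list of *Itih3* was of another kind: *Uroc1* (histidine breakdown, r = 0.52 and 0.26), *Hc* (complement C5), *Hamp* (hepcidin), *Sfxn1* and *Sds*, the last of them a zone 1 marker. The highest mean r of *Saa4* was the lowest of the 6 genes, 0.29 for *Saa1* (r = 0.41 and 0.16). It was followed by 0.27 for *Cxcl1* and 0.25 to 0.23 for *Gm26917*, *Nnmt* and *Slc8a1*. For comparison, the 99th percentile of r over all these genes was 0.19 and 0.13 with *Saa1*, and 0.14 and 0.22 with *Saa4*.

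Outside hepatocytes, UMIs of these genes were read against 12 other hepatocyte genes, each as a percentage of its hepatocyte CPM over all other named cell types together. In the library labelled Flox these ran from 6.97% (*Serpinc1*, antithrombin) to 128% (*Apoe*), and in that labelled HKO from 5.80% (*Cps1*, of the urea cycle) to 159% (*Apoe*), which macrophages also make. *Hp* and *Hpx* stood within these ranges, at 186 and 100 CPM in the library labelled Flox (24.6% and 27.7% of hepatocytes) against 170 and 101 CPM in that labelled HKO (34.9% and 38.1%). *Saa1* stood at 23.9 CPM there in the library labelled Flox, 4.99% of its hepatocyte level, and at 19.0 CPM in that labelled HKO, 24.8%. *Itih3* stood at 3.67% and 7.86%, below the range in the library labelled Flox and within it in that labelled HKO. *Saa4* stood at 3.61% and 4.56%, below both ranges, the second with a counting interval (3.38–6.02) that overlapped that of *Cps1* (5.03–6.66). The part of free RNA in these levels was not tested.

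**Figure D5:**
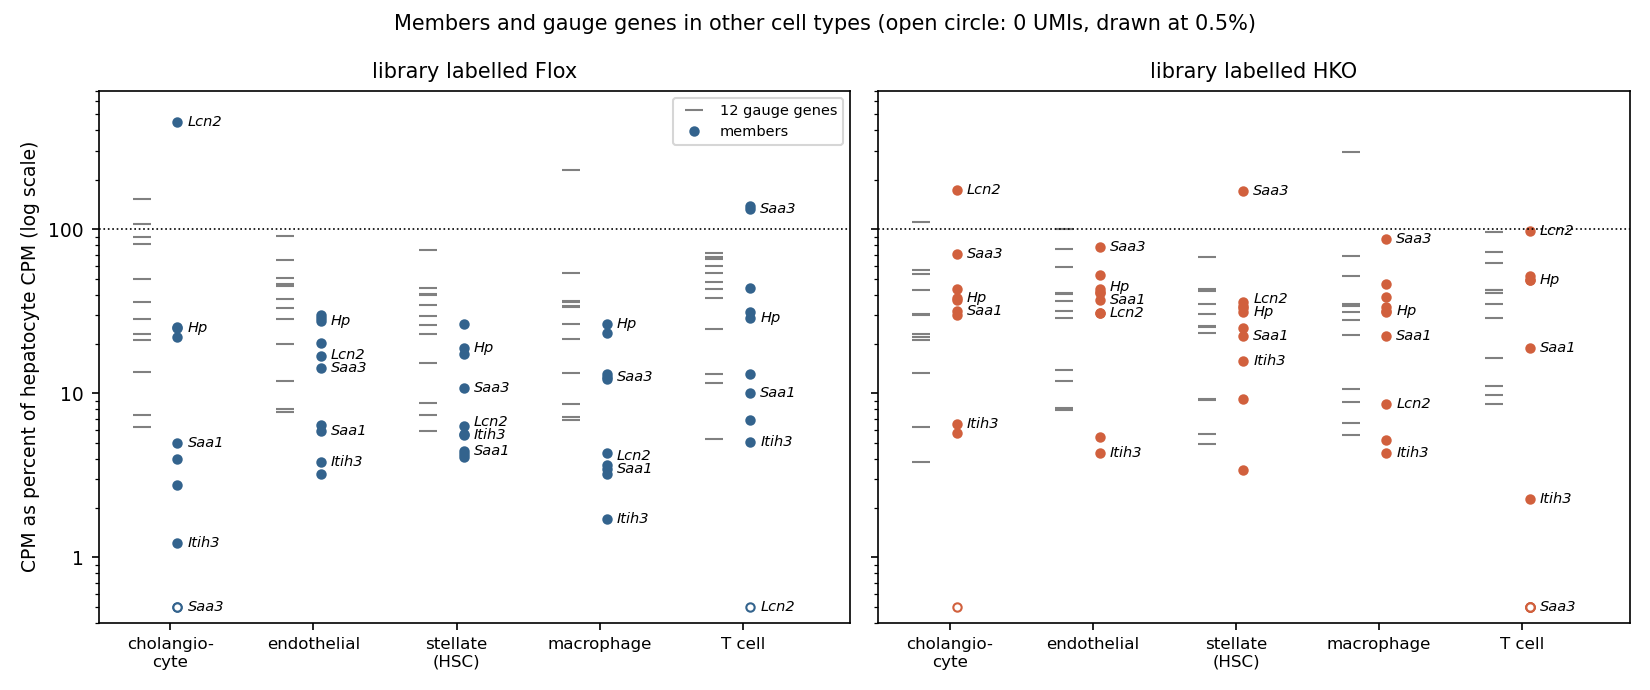
CPM of the 10 genes in other cell types as a percentage of the CPM in hepatocytes of the same library (log axis), with grey dashes for the 12 other hepatocyte genes (gauge genes), a dotted line at 100%, and open circles near the bottom for genes with no UMI in a cell type. *Lcn2* in cholangiocytes lies above 100% in both libraries (447% and 172%), while the points above 100% in T cells rest on 1 or 2 UMIs.

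*Lcn2* and *Saa3* reached levels above those of hepatocytes in other cell types, on few UMIs. In cholangiocytes, the cells lining bile ducts, *Lcn2* stood at 91.2 CPM in the library labelled Flox (19 UMIs in 110 nuclei) against 38.3 CPM in that labelled HKO (22 UMIs in 374 nuclei), 447% and 172% of its hepatocyte level. *Saa3* in HSCs, the collagen-making stellate cells, gave 1 UMI in the library labelled Flox against 15 in that labelled HKO (0.645 and 8.52 CPM, ratio 13.2 with an interval of 2.03 to 556). The level in the library labelled HKO was 172% of that in its hepatocytes, with a counting interval of 93.7 to 294% that included equality. All 15 lay in nuclei with a UMI of a fibrillar collagen, which 1007 of the 1171 HSCs of that library had. Neutrophils, which store lipocalin 2 and haptoglobin in granules, numbered 22 nuclei in the library labelled Flox and 3 in the other. Those 22 nuclei held 5 *Lcn2* and 18 *Hp* UMIs (344 and 1240 CPM), too few to compare between libraries. In macrophages there was 1 *Saa3* UMI in the library labelled Flox against 9 in that labelled HKO. These values depended on the removal of doublets: with doublets kept, *Saa3* stood above hepatocytes in macrophages labelled Flox and in HSCs labelled HKO. Over all other named types *Saa3* stood at 0.894 and 5.17 CPM, a ratio of 5.78 (2.04–22.5), unlike its ratio in hepatocytes, though on 4 and 31 UMIs.

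The study described hepatocytes marked by *Nrg1*, *Anxa2*, *Gdf15* and related genes as daHep. Hepatocytes with UMIs of at least 2 of 6 such markers after thinning numbered 122 in the library labelled Flox against 207 in that labelled HKO, and which nuclei were chosen depended on the random thinning. Over 3 draws, *Orm2* was 2.08- to 3.05-fold higher in them than in the other hepatocytes of the library labelled Flox, and 2.10- to 2.34-fold higher in that labelled HKO. This rested on few UMIs, 23 and 17 in the main draw. The counting intervals of *Orm2* over the draws spanned 1.31 to 4.41 and 1.15 to 3.92. *Hpx* was 1.17- to 1.38-fold and 1.45- to 1.53-fold higher, and *Hp* 1.14- to 1.396-fold and 1.27- to 1.42-fold. *Saa4* was lower in them, at ratios of 0.642 to 0.791 and 0.471 to 0.741. The ratio of *Saa1* ran from 0.547 to 1.02 in the library labelled Flox and from 1.06 to 2.36 in that labelled HKO, and that of *Saa2* from 0.348 to 0.980 and from 1.04 to 5.26. Both thus depended on which nuclei were drawn. *Lcn2* ran from 1.16 to 1.98 and from 2.24 to 2.42. Its counting intervals over the draws spanned 0.713 to 2.74, which includes equality, and 1.68 to 3.16.

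Other genes of the acute phase response give the setting in hepatocytes. Of 28 further positive acute phase genes, 24 had enough UMIs. Of these, 10 were lower by 1.5-fold or more in the library labelled HKO and 1 was higher, and their median log2 ratio was −0.49. Among all 11214 genes tested, 9.73% were lower and 7.32% higher by this margin, with a median log2 ratio of −0.02. *Lrg1*, a leucine-rich glycoprotein, stood at 173 and 44.6 CPM (3.87-fold lower), and the fibrinogen genes *Fgg* (1142 and 388 CPM) and *Fgb* (1800 and 637 CPM) were 2.94- and 2.82-fold lower. *Cp* (ceruloplasmin) had a ratio of 1.34 and *Apcs* (serum amyloid P) one of 1.15.

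Negative acute phase genes were not higher as a group. Among 12 genes 3 were higher and 2 lower, beside 7.32% and 9.73% of all genes tested, with a median log2 ratio of −0.22. *Igf1* stood at 341 and 719 CPM (ratio 2.11), *Cyp7a1*, the rate-limiting enzyme of bile acid synthesis, at 1.97 and the tyrosine-degrading enzyme gene *Tat* at 1.56, against 0.615 for *Fetub*, 0.659 for *Apoa1* and 0.671 for the retinol carrier *Rbp4*. Of 21 signalling and transcription factor genes tested out of 22, 4 were lower and 1 higher, beside the same shares of all genes. Their median log2 ratio was −0.04. *Socs3*, the feedback inhibitor induced by STAT3, was lowest (28.3 and 10.7 CPM, 2.64-fold lower), followed by *Bcl3* (1.89-fold), while *Nfkb2* (1.59), *Traf6* (1.26) and *Rel* (1.25) had the highest ratios.

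Of 12 cytokine receptor genes, 9 were tested, with 1 higher and 1 lower and a median log2 ratio of 0.09. These counts lay close to the shares over all genes tested, 7.32% higher and 9.73% lower. The same shares are the background for the lists that follow. *Il1rap*, a subunit of the interleukin-1 receptor, had a ratio of 0.653, *Lifr* 0.796 and *Tnfrsf1a* 0.828, while *Il6st*, the gp130 subunit through which interleukin-6 signals, stood at 62.1 and 90.3 CPM (1.45), *Ifngr1* at 1.70 and *Tnfrsf1b* at 1.26. Of 8 interferon and chemokine genes, 7 were tested, and 5 of these were higher and none lower, with a median log2 ratio of 0.81. *Rsad2*, an antiviral enzyme, had a ratio of 3.18, *Cmpk2* 2.18 and *Cxcl10* 1.93, against 0.969 for *Gbp6*, 1.26 for *Ifit1* and 1.76 for *Ifit3*. Of the 6 daHep markers, 5 were tested and 3 were higher, *Nrg1* (5.99), *Anxa2* (2.43) and *Klf6* (2.26), with *Jun* at 1.44 and *Gdf15* at 0.767. Among other cell types' markers in hepatocytes, the 12 endothelial markers were the most abundant, at 292 and 261 CPM in sum, with a median of 2 and 1 UMI per hepatocyte. The 12 HSC markers summed to 91.9 and 127 CPM and the 13 macrophage markers to 34.8 and 40.6 CPM. Their part in these ratios was not tested.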

How the data were processed

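The authors deposited raw UMI counts per gene and nucleus, made per the labels with Cell Ranger 8.0.1 on mm10 (GRCm38) with intronic reads excluded and without normalization. A nucleus was kept from 300 detected genes on, and a gene from 3 nuclei on, and the highest Scrublet scores (scanpy 1.11.5; 0.8% per 1000 barcodes) were removed as doublets, 701 and 920 barcodes. The lowest total was 500 UMIs, and 27 barcodes occurred in both libraries.

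A hepatocyte needed 0.6% of its UMIs, and at least 5, from 18 markers, with no other type passing. There were 40 and 139 nuclei between 0.5% and 0.7%. Other types needed 0.2%, 3 UMIs, 2 markers and 2 times the next type. 3.44% and 8.50% of nuclei stayed untold. The zone index was the zone 3 share of at least 10 zone-marker UMIs. Counts were summed over nuclei and scaled to CPM. Log2 ratios carry 1 CPM as a pseudocount, while folds carry none. Intervals are exact Poisson for CPM, conditional binomial for ratios and Clopper-Pearson for shares, at 95%. Correlations used Pearson residuals (theta 100). Analyses ran in Python 3.11.15 with scipy 1.17.1, and TMM factors in edgeR 4.0.16, after the fold, interval and correlation steps were checked on simulated data. Named genes were all 10 members, the 5 most alike per member, and the 3 highest and 3 lowest ratios per list, of which some are not reported here. Members and lists were chosen with earlier results of these data known. Promoters came from a RefSeq table (GRCm38.p6) in which 8 of the 10 members were matched, all but *Hp* and *Orm1*.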

Additional observations from a re-analysis of the deposited data

Results flagged for a closer look

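*Saa2* went opposite ways in hepatocytes and in all other named cell types combined. In hepatocytes it stood at 121 CPM in the library labelled Flox and 28.2 CPM in that labelled HKO, a ratio of 0.233. In the other types it stood at 6.26 CPM (28 UMIs) and 10.3 CPM (62 UMIs), a ratio of 1.65 with a counting interval of 1.04 to 2.68. The difference between these ratios was not tested, since each group was 1 library, and the level in the other types was 5.18% and 36.6% of that in hepatocytes. Taken singly, cholangiocytes (0.326–114), endothelial cells (0.661–4.08), HSCs (0.819–5.26) and macrophages (0.737–5.08) had intervals of the *Saa2* ratio that included equality. T cells gave 2 and 0 UMIs. The mix of types also differed, with 604 macrophages labelled Flox against 1436 labelled HKO.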

How the results depend on the processing

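No paired analysis was possible because each genotype was 1 library, and for the same reason no library could be left out. With a fold of 2 in place of 1.5, 4 of the 10 genes and 6 of the other positive acute phase genes were lower in hepatocytes of the library labelled HKO, in place of 7 and 10. With doublets kept, 4 combinations of gene, cell type and library stood above hepatocytes in place of 2: *Lcn2* in cholangiocytes of both libraries, *Saa3* in HSCs labelled HKO and *Saa3* in macrophages labelled Flox. *Orm2* in zone 1 over zone 3 of the library labelled Flox was 0.919 without the most abundant zone markers. The other 39 summary counts stayed within 1.5 times the reported ones. Across all alternatives the ratio of *Saa1* in hepatocytes ran from 0.136 to 0.166, that of *Itih3* from 0.369 to 0.432, that of *Saa3* from 0.321 to 1.15 and that of *Lcn2* from 0.773 to 1.13, the last 2 thus crossing 1. Weighting each nucleus equally left 6 genes lower, without *Hp*, whose ratio was then 0.678. The limits on depth, on hepatocytes without a zone and on repeated thinning were added after the data had been seen. Depth limits *Saa3*, *Lcn2* and *Orm2* most, with 136 to 940 UMIs per library in hepatocytes.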

Other observations

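Cytokines known to drive the acute phase response were read in the 6 cell types with enough nuclei in both libraries, hepatocytes, cholangiocytes, endothelial cells, HSCs, macrophages and T cells. Neutrophils, B cells, plasma cells and dendritic cells were not covered, and *Il1b* was among the 10 leading genes of the neutrophil nuclei. Of those 6, *Il1b* was highest in macrophages, at 201 CPM in the library labelled Flox (268 UMIs) and 98.1 CPM in that labelled HKO (206 UMIs), and *Tnf* stood at 48.0 and 21.9 CPM there. *Il1a* was highest in endothelial nuclei, at 86.5 and 61.3 CPM, and *Il18* in macrophages, at 34.5 and 37.6 CPM, with 195 and 125 UMIs in hepatocytes. *Clcf1*, an interleukin-6 family cytokine, was highest in cholangiocytes, at 134 and 204 CPM, and in hepatocytes it stood at 1.97 and 7.46 CPM, a ratio of 3.78 (2.94–4.90). *Ctf1* in hepatocytes stood at 10.2 and 7.43 CPM (471 and 204 UMIs). *Il6* itself was barely captured, with 4 UMIs in 604 macrophages labelled Flox and 1 in 1436 labelled HKO, and *Osm* gave 3 and 6 UMIs in the same nuclei. *Lif* and *Il11* gave at most 22 UMIs in any cell type, and *Il22* none.

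Of 10 receptors and partners of the acute phase proteins, 6 were tested in hepatocytes, with a median log2 ratio of −0.28. In the library labelled HKO 2 were lower by 1.5-fold and none higher, beside 9.73% and 7.32% of all genes tested. *Lrp1*, the receptor that clears haem bound to hemopexin, stood at 684 and 407 CPM (ratio 0.594), followed by *Ambp* (0.633) and *Itih1* (0.718), while *Hmox1* (1.47), *Scarb1* (1.13) and *Itih2* (0.942) had the highest ratios. *Cd163*, the macrophage receptor for haemoglobin bound to haptoglobin, stood in macrophages at 307 CPM in the library labelled Flox (409 UMIs in 604 nuclei) and 28.6 CPM in that labelled HKO (60 UMIs in 1436 nuclei). The macrophages of the libraries fell in part into different clusters, 1 cluster holding 418 and 483 nuclei and another 93 and 913.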
